A study of Mus musculus with 6 samples.

Results

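The genes described here encode the machinery by which synaptic and dense-core vesicles dock at the plasma membrane, are primed, fuse and release transmitter. They were taken by symbol from the deposited table: syntaxins and syntaxin-binding proteins, SNAP and VAMP proteins, synaptotagmins and Doc2, complexins, RIM, Munc13 and CAPS proteins, Rab3, the active zone scaffolds Bassoon, Piccolo and ELKS, NSF with its attachment proteins, synapsins, SV2, synaptophysins and synaptogyrins. The rule found 72 of the 9583 genes in the table and used no measured value. Of 94 annotated mouse symbols that match it, 22 are not analysed here, among them Syt2, Syt9, Cplx3, Doc2a, Rab3d and Vamp8. The table holds no gene with under 1 normalized read in any library.

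Neurons were dissociated from the POA, the preoptic part of the hypothalamus, where temperature signals are integrated. The mice were C57Bl/6J, wild-type and naïve, at an age of 6 to 14 weeks. Calcium imaging was carried out while the bath was cooled to about 10°C, after which neurons in the top 7% of the response to cold were aspirated as cold-sensitive and those in the bottom 14% as cold-insensitive. There were 3 biological replicates of either type, with about 100 to 200 neurons pooled into each library, so single cells cannot be told apart. By the study's methods both types were taken from the same coverslips and pooled within a replicate. The question was which transcripts differ between neurons that respond to cold and neurons that do not.

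Total counts were 5276233 to 5712983 in the cold-insensitive libraries and 3316441, 3398010 and 6818554 in the cold-sensitive ones, of which the 72 genes took 1.66% to 1.73% and 1.71% to 1.86%. Neuronal markers were in the table for 10 of 10 genes, with a summed level of 4921 to 8036 normalized reads in the cold-insensitive and 5300 to 7067 in the cold-sensitive pools. Of these 10, 0 were called in edgeR and 2 were called lower with the replicate number as a block: Nefm (neurofilament medium chain), at 551, 1058 and 1011 normalized reads in cold-insensitive and 274, 564 and 471 in cold-sensitive replicates (adjusted p 0.0604 in edgeR and 0.00325 with the block), and Nefl (light chain), at 392, 667 and 762 against 129.9, 435 and 346 (0.141 and 0.00388). Elavl4, an RNA-binding protein of neurons, had a log2 fold change of 0.73 (unadjusted p 0.0365, adjusted p 0.406, edgeR). Other cells' markers also differed. The 3 of 8 oligodendrocyte precursor genes in the table summed to 462 to 500 and 47.3 to 57.5 normalized reads. Most of this sum was Pdgfra, with means of 352 and 11.8. Pdgfra and Cacng4 were called lower in cold-sensitive pools, while C1ql1 had a log2 fold change of 0.95 (adjusted p 0.750, edgeR). The 2 of 10 oligodendrocyte genes summed to 27.2 to 322 and 178 to 1063 (Mbp called higher with the block, adjusted p 0.00218, and not without it, 0.382, edgeR). The defining genes of both lineage stages, Olig1, Olig2, Sox10, Cspg4, Mog, Mag and Cnp, are not analysed here. The 3 of 10 astrocyte genes summed to 129 to 345 and 128 to 167, the 1 of 5 ependymal genes (Foxj1) stood at 1.36 to 22.3 and 1.49 to 8.33, and 0 of 10 microglial and 0 of 10 vascular genes were in the table. Among transmitter markers, the vesicular glutamate transporter Slc17a6 was called higher in cold-sensitive pools (log2 fold change 1.25, adjusted p 0.0243, edgeR). With single libraries left out, its edgeR adjusted p ran from 0.00812 to 0.133, and 11 of 15 alternative settings called it. Slc17a8, the other glutamate transporter in the table, had a log2 fold change of -0.87 (adjusted p 0.752, edgeR). For the vesicular GABA transporter Slc32a1 it was -0.95 (adjusted p 0.211, edgeR). The remaining GABA markers differed less, by -0.39 for Gad1 (adjusted p 0.594, edgeR) and -0.12 for the more abundant Gad2 (adjusted p 0.924, edgeR). The part of these markers in the differences of the release genes was not tested.

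In a nerve terminal, the vesicle SNARE synaptobrevin (Vamp2) zips together with a syntaxin and SNAP-25 of the plasma membrane, guided by proteins that bind syntaxin. Munc13, RIM and CAPS proteins make docked vesicles ready for fusion, complexin clamps and assists the assembled complex, and synaptotagmins couple fusion to calcium. Afterwards NSF and its attachment proteins take the SNARE complex apart. Peptide-releasing hypothalamic neurons use much of the same set for dense-core vesicles.

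These genes were abundant and their order of abundance was similar in both types. Levels are given as the authors' normalized reads (RPM, reads scaled to a common library size). Their median was 113 normalized reads, against 45.4 for all genes, and 76.3% of all genes lay below it. Per kilobase of exon, the highest mean levels were those of Syt4 (680 RPM per kilobase), a synaptotagmin of dense-core vesicles, Snap25 (228), Syp (172), Vamp2 (167) and Syt11 (121). Syn1 (94.7), Rab3a (94.5), Syt1 (89.7) and Snap47 (88.7) also ranked high on the same scale. Per kilobase, the calcium sensor Syt1 thus stood below Syt4 and Syt11, which lack a calcium-binding residue of Syt1. In mean normalized reads not divided by exon length, Syt1 was below Syt4 but above Syt11. The means in cold-insensitive and cold-sensitive pools were 697 and 800 for Syt1 and 608 and 656 for Syt11. At the lower end were Syn3 (1.08), Stx8 (1.24), Stx11 (1.81), Sv2b (1.86) and Vamp1 (1.90). Across the 72 genes, the log2 mean levels of both types correlated with a Pearson's r of 0.966 and a Spearman's rho of 0.967, against 0.929 and 0.931 across all 9583 genes. These points share their libraries, and genes are not independent replicates.

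**Figure D1:**
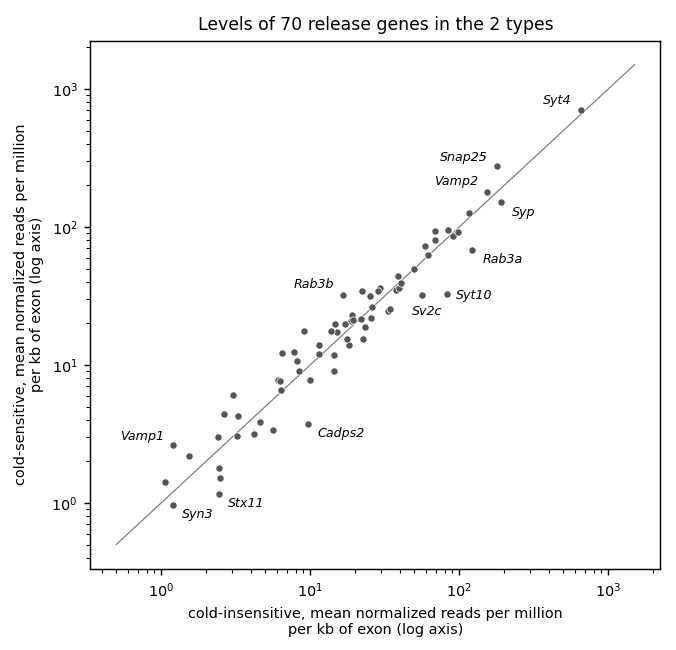
Mean normalized reads (RPM) per kilobase of exon of 70 of the 72 genes in cold-insensitive (x) and cold-sensitive (y) pools, on log axes, 1 point a gene, with a line at equal levels. Most genes lie along the line, from Syn3 to Syt4. Cadps2, Syt10, Sv2c and Rab3a lie below it and Rab3b above it.

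By the edgeR quasi-likelihood test, with Benjamini-Hochberg adjustment over 9583 genes and calls at an adjusted p of at most 0.05, 0 of the 72 genes were called higher in cold-sensitive pools and 0 lower. Over all genes the test called 32 higher (0.334%) and 80 lower (0.835%). Before adjustment 10 of the 72 had a p under 0.05, beside 10.7% of all genes. Of these, 5 were higher (6.94%, beside 5.04% of all genes) and 5 lower (6.94%, beside 5.66%), which are shares close to the background. Levels of the types did not overlap, with the cold-sensitive pools above, for 8 genes (11.1%, beside 7.84% of all genes) and, with the cold-sensitive pools below, for 6 genes (8.33%, beside 8.18%). With the replicate number as a block, 0 of the 72 were called higher (beside 0.417% of all genes) and 2 lower (2.78%, beside 1.19%), namely Syt10 and Sv2c. DESeq2 gave an adjusted p for 68 of the 72 genes and 8651 of all genes. It called 4 of the 68 lower (5.88%, beside 1.76% of all genes), which added Cadps2 (adjusted p 0.0110) and Rab3a (0.0264), and 0 higher (beside 0.913%).

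The log2 fold change, cold-sensitive over cold-insensitive, had a median of 0.11 over the 72 genes and 0.0013 over all genes. It was above 0 for 42 and below 0 for 30, and ran from -1.39 (Cadps2) to 1.12 (Vamp1). Its size was under 0.5 for 53 genes (73.6%, beside 64.9% of all genes) and over 1 for 4 (5.56%, beside 11.2%). The biological coefficient of variation had a median of 26.6% over these genes and 39.1% over all, so these abundant genes were measured more tightly than most genes. In bulk RNA, fewer cells that express a gene and less RNA per cell cannot be told apart.

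**Figure D2:**
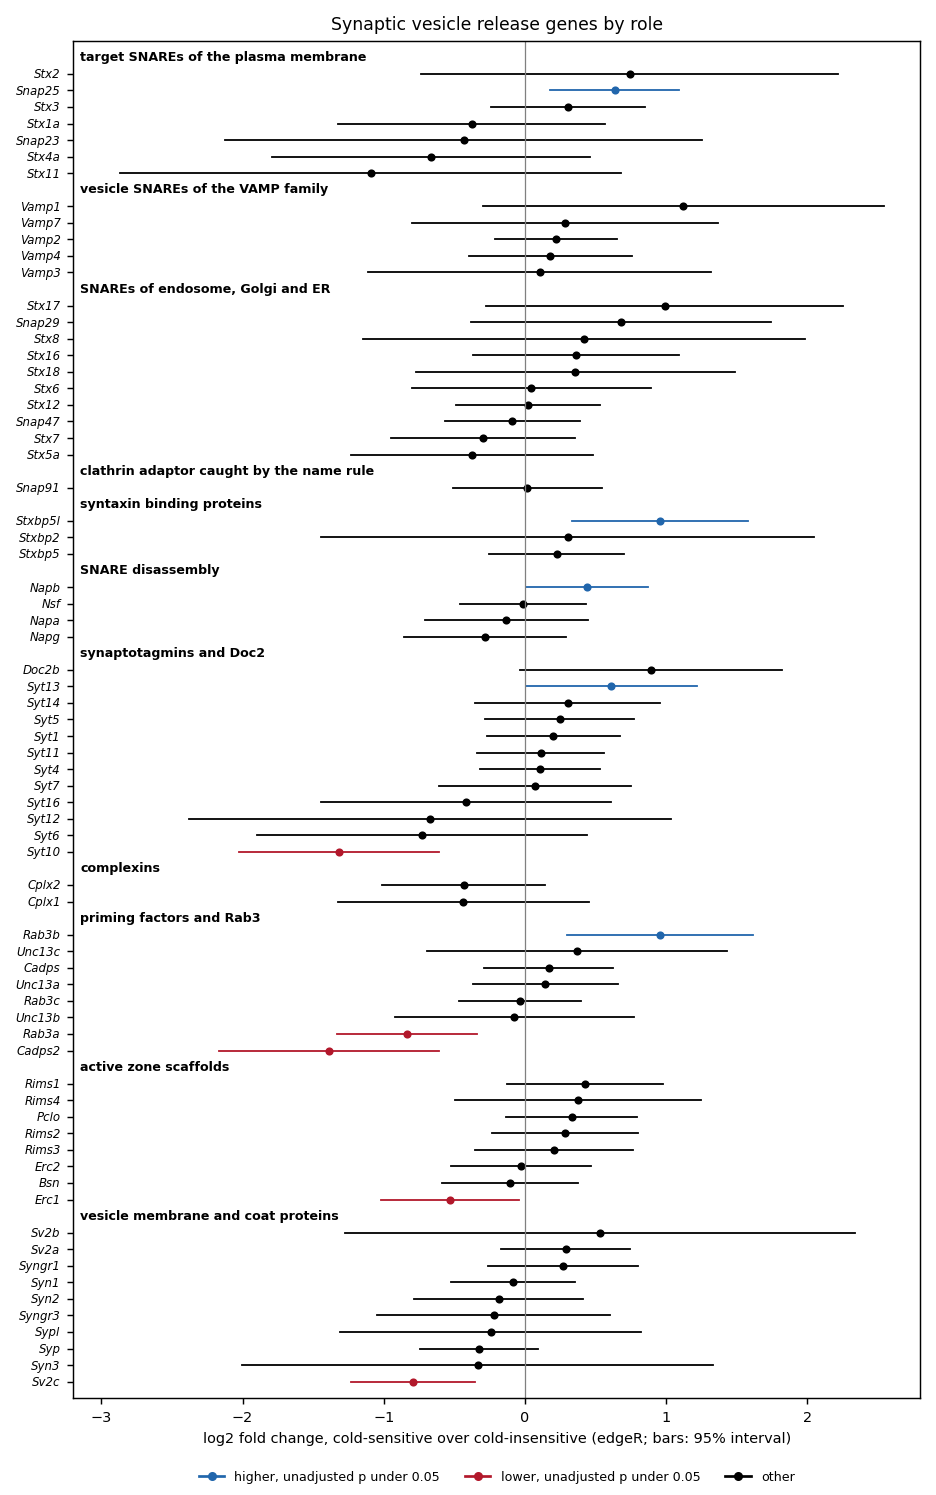
Log2 fold change, cold-sensitive over cold-insensitive, of 70 of the 72 genes by role (points) with 95% intervals from edgeR (bars), blue and red where the unadjusted p was under 0.05. The 10 coloured genes lie in several roles, 5 to each side, and the intervals of the other genes span 0.

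The 4 genes with the lowest p of the set were all lower in cold-sensitive pools: a synaptotagmin, an SV2 protein of the vesicle membrane, a priming factor and a Rab3. Syt10, a synaptotagmin that in mice serves the calcium-dependent release of insulin-like growth factor 1 from olfactory bulb neurons (chr15:89782393-89841860, minus strand, GRCm38), had 92.9, 173 and 190.1 normalized reads in cold-insensitive replicates 1 to 3 and 35.1, 60.2 and 86.7 in cold-sensitive replicates 1 to 3. All cold-sensitive pools lay below all cold-insensitive ones, and within each type replicate 1 was the lowest. The log2 fold change was -1.32 ± 0.34 (SE, n = 3 pools per type), with an adjusted p of 0.0604 in edgeR and of 0.0140 with the replicate block. Single libraries moved this call: leaving out cold-insensitive replicate 1 gave an edgeR adjusted p of 0.0454, leaving out cold-sensitive replicate 3 gave 0.0400, and in the blocked fit it was 0.119 without the pair of replicate 2. Over the 15 alternatives the adjusted p of Syt10 ran from 0.0140 to 0.344.

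Sv2c, one of the SV2 glycoproteins of vesicle membranes and a receptor for botulinum neurotoxin A (chr13:95954594-96132577, minus strand), had 560.4, 537 and 534 normalized reads in the cold-insensitive and 249.98, 361 and 329 in the cold-sensitive replicates. The cold-insensitive pools lay within a narrow band, and all cold-sensitive pools lay below it. On the log2 scale the fold change was -0.80 ± 0.21 (SE, n = 3), with an adjusted p of 0.0689 in edgeR and of 0.0323 with the block. In the blocked edgeR fit the adjusted p was 0.189, 0.0519 and 0.0637 without the pairs of replicates 1, 2 and 3, and over the 15 alternatives it ran from 0.0131 to 0.275.

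Cadps2 (CAPS2), which primes dense-core vesicles (chr6:23262773-23839421, minus strand), had 89.9, 93.7 and 94.2 normalized reads in the cold-insensitive and 37.9, 47.0 and 21.7 in the cold-sensitive replicates. The cold-insensitive pools were nearly equal, and the cold-sensitive ones were lower and more spread, with replicate 3 the lowest. Its log2 fold change was -1.39 ± 0.38 (SE, n = 3), with an adjusted p of 0.0724 in edgeR and of 0.0573 with the block, and of 0.0110 to 0.326 over the 15 alternatives, with DESeq2 the only one to call it. Rab3a, the main Rab GTPase of synaptic vesicles (chr8:70754679-70758677, plus strand), had 238, 278 and 292 normalized reads in the cold-insensitive and 121, 165 and 167 in the cold-sensitive replicates. The types did not overlap, and the log2 fold change was -0.83 ± 0.24 (adjusted p 0.102 in edgeR and 0.0576 with the block, 0.0264 to 0.365 over the alternatives). Of its exon bases, 29 overlap Mpv17l2 on the other strand, and the authors counted with default parameters, which ignore strand.

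Erc1, an ELKS scaffold of the active zone (chr6:119570796-119848167, minus strand), had 265, 407 and 424 normalized reads in the cold-insensitive and 211, 310.2 and 237 in the cold-sensitive replicates. Here the types overlapped, since cold-sensitive replicate 2 lay above cold-insensitive replicate 1. The fitted log2 difference was -0.53 ± 0.24 (adjusted p 0.392, edgeR).

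Of the 5 genes higher at the unadjusted threshold, 0 were called by edgeR with or without the block over all pools, or by DESeq2. Stxbp5l (tomosyn-2), which binds syntaxin and SNAP-25 and holds back SNARE assembly (chr16:37114942-37384962, minus strand), had 68.6, 63.2 and 99.4 normalized reads in the cold-insensitive and 106, 161 and 181 in the cold-sensitive replicates. All cold-sensitive pools were above all cold-insensitive ones, with a log2 fold change of 0.96 ± 0.30 (SE, n = 3) and an adjusted p of 0.164 in edgeR. Rab3b, a paralogue of Rab3a that also sits on dense-core vesicles (chr4:108879063-108943324, plus strand), had 40.9, 66.1 and 67.9 normalized reads in the cold-insensitive and 129, 103 and 107 in the cold-sensitive replicates. The lowest cold-sensitive pool was well above the highest cold-insensitive pool, and the log2 fold change was 0.96 ± 0.32 (adjusted p 0.206, edgeR).

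Snap25, the target SNARE that forms the release complex with a syntaxin and synaptobrevin (chr2:136713453-136782428, plus strand), had 1224, 975 and 1435 normalized reads in the cold-insensitive and 1437, 1826 and 2383 in the cold-sensitive replicates. The types did not overlap, although the highest cold-insensitive and the lowest cold-sensitive pool were nearly equal. The log2 fold change was 0.64 ± 0.22, with an adjusted p of 0.235 in edgeR and of 0.0757 with the block, and of 0.0235 in the blocked fit without the pair of replicate 1. Syt13, a synaptotagmin without the residues that bind calcium (chr2:92915098-92956058, plus strand), had 62.2, 93.2 and 97.5 normalized reads in the cold-insensitive and 112, 136 and 138 in the cold-sensitive replicates, with a log2 fold change of 0.61 ± 0.29 (adjusted p 0.455, edgeR). Napb, the attachment protein beta-SNAP that brings NSF to spent SNARE complexes in brain (chr2:148693985-148732467, minus strand), had 429.8, 477 and 555 in the cold-insensitive and 644, 765 and 571 in the cold-sensitive replicates, with a log2 fold change of 0.44 ± 0.21 (adjusted p 0.457, edgeR).

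For both Syt13 and Napb the types did not overlap, but the edges of the types lay close together. For each of the 9 genes among these 10 whose types did not overlap, the two-sided exact permutation test gave p = 0.1, the smallest that 3 pools against 3 allow, and for Erc1 it gave p = 0.2. The count of 5 higher genes depended on single pools: it was 3 without cold-insensitive replicate 1, without cold-sensitive replicate 2 or without cold-sensitive replicate 3.

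**Figure D3:**
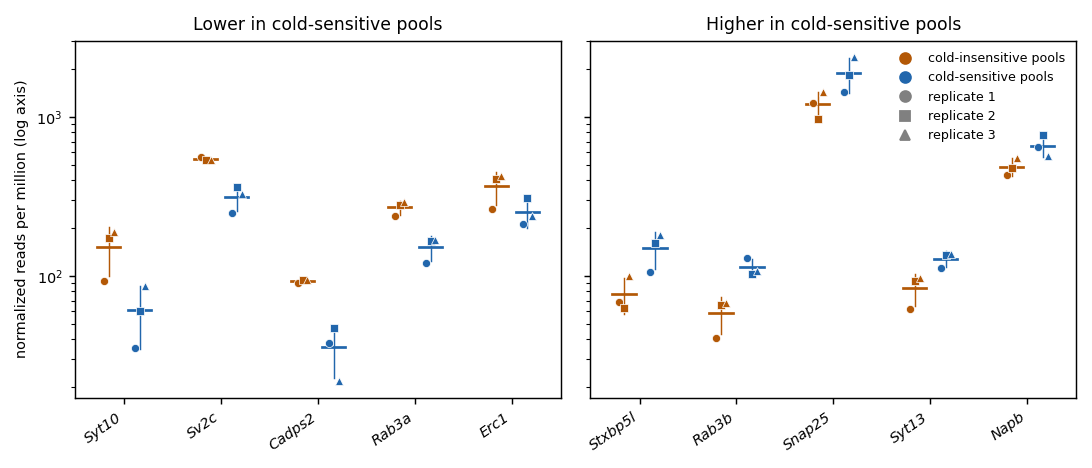
Normalized reads (RPM, log axis) of the 10 genes at an unadjusted p under 0.05, by pool, with type means (horizontal lines) and SD (vertical lines, n = 3). Left, 5 genes lower in cold-sensitive pools, and right, 5 higher. For 9 of the 10 the types do not overlap, the exception being Erc1.

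The balance within families of related genes was then compared as ratios of normalized reads per kilobase of exon within each library, which do not depend on the scaling between libraries. The pairs were chosen with the values known, so the ratios are a description without a test. Rab3b reached 0.108, 0.150 and 0.147 times the level of Rab3a in cold-insensitive replicates 1 to 3, and 0.675, 0.393 and 0.405 times in cold-sensitive replicates 1 to 3. As a share of summed Rab3a, Rab3b and Rab3c per kilobase, Rab3a averaged 67.9% in cold-insensitive and 48.4% in cold-sensitive pools. Rab3b averaged 9.22% and 23.3%, and Rab3c 22.8% and 28.3%. Per kilobase, Rab3a was the most abundant Rab3 of the table in each of the 6 libraries. In normalized reads not divided by exon length, Rab3c was above Rab3a in each of them.

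Sv2c to Sv2a stood at 1.06, 0.827 and 0.974 in cold-insensitive and at 0.305, 0.523 and 0.550 in cold-sensitive replicates. Per kilobase, both paralogues were thus near parity in the former and Sv2a led in the latter. In normalized reads not divided by exon length, Sv2c was above Sv2a in all cold-insensitive pools and in cold-sensitive replicates 2 and 3, and below it in cold-sensitive replicate 1. Sv2a, the SV2 protein found at most synapses, had 253, 310.1 and 262 against 391, 330.1 and 286 normalized reads, with a log2 fold change of 0.29 ± 0.22 (adjusted p 0.730, edgeR). Cadps2 to Cadps stood at 0.611, 0.508 and 0.461 in cold-insensitive and at 0.196, 0.248 and 0.0992 in cold-sensitive replicates. Cadps, the other CAPS gene, had a log2 fold change of 0.17 ± 0.22, and Cadps2 made up 34.4% and 15.1% of the sum of the CAPS genes in the respective types. Syt10 to Syt1 stood at 0.584, 1.28 and 1.13 against 0.223, 0.463 and 0.356.

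The ratios of Rab3b to Rab3c and of Stxbp5l to Stxbp5 also did not overlap between the types. The ratios of Cplx1 to Cplx2, Vamp1 to Vamp2, Erc1 to Erc2, Napb to Napa, Snap23 to Snap25, Syn2 to Syn1 and Unc13b to Unc13a overlapped. For Snap23, a broadly expressed relative of Snap25, and for Vamp1 the ratios were at most 0.0212 and 0.0181, so Snap25 and Vamp2 were the more abundant paralogue in each of the 6 libraries.

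**Figure D4:**
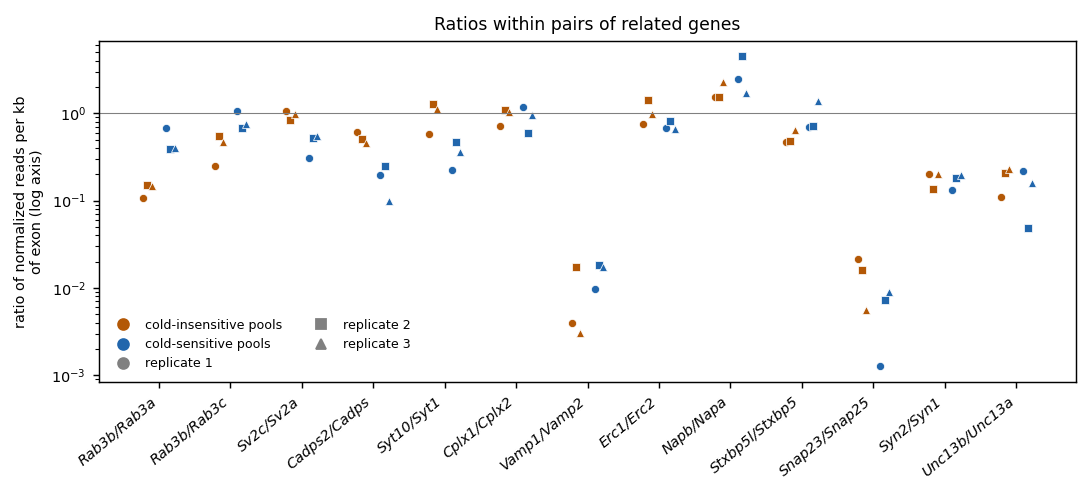
Ratio of normalized reads per kilobase of exon within pairs of related genes (log axis), 1 point a library, with a line at equal levels. Rab3b to Rab3a is higher in all cold-sensitive pools, and Sv2c to Sv2a, Cadps2 to Cadps and Syt10 to Syt1 are lower.

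The promoters of Rab3a and Rab3b, the paralogues with opposite differences, and of Syt10 and Sv2c, called with the block, are shown for comparison. They span 250 bases before to 50 after the RefSeq start in GRCm38.p6 and run 5′ to 3′ on the strand of the gene: chr8:70754453-70754752, plus strand, for Rab3a (the upstream of 2 annotated starts), chr4:108878820-108879119, plus strand, for Rab3b, chr15:89841811-89842110, minus strand, for Syt10 and chr13:96132528-96132827, minus strand, for Sv2c. Capitals mark the core of the cAMP response element, TGACG, where it lies on this strand or on the other one, and in Rab3b also the letters TATAAA, the longer run in capitals.
Rab3a: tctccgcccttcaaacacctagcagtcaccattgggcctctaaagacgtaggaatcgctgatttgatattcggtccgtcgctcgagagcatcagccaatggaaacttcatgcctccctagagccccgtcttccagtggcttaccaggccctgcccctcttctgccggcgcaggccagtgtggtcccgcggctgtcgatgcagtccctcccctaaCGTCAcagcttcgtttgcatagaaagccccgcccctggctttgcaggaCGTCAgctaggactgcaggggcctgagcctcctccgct
Rab3b: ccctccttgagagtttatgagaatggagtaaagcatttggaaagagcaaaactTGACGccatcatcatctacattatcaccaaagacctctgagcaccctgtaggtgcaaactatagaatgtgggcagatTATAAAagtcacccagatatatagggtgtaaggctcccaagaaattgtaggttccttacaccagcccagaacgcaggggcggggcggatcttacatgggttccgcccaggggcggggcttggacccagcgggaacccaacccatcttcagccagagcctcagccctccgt
Syt10: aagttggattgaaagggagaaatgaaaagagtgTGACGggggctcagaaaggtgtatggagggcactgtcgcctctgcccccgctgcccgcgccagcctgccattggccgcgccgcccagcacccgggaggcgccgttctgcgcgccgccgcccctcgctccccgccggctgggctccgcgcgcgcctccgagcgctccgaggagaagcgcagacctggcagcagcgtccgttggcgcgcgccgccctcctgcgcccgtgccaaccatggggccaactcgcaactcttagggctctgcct
Sv2c: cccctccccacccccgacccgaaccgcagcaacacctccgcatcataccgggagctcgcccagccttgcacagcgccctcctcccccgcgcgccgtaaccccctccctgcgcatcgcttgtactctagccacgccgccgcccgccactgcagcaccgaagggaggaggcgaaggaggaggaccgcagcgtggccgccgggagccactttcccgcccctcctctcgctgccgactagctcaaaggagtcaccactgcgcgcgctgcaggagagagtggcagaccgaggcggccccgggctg

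TGACG was found on either strand in the promoters of Rab3a (2 matches), Rab3b (1) and Syt10 (1), and Rab3b also held TATAAA. In the Sv2c window these letters were not found. The core was present in 16 of 69 promoters of the release genes (23.2%, of 15 genes), beside 20.8% of all 32851 RefSeq promoters of the same length. TATAAA was present in 5 of 69 (7.25%), beside 13.6% of all, and the full element TGACGTCA in 2 of 69 (2.90%, Napa and Syn1), beside 1.79%. Promoters were matched for 55 of the 72 genes. A match is a stretch of letters and does not show that a factor binds there.

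Among the 8 target SNAREs of the plasma membrane, Snap25 had the highest level per kilobase and alone passed the unadjusted threshold. Stx1a, a syntaxin that pairs with Snap25 in the release complex, had 63.7, 43.6 and 38.4 normalized reads in cold-insensitive replicates 1 to 3 against 56.0, 24.9 and 31.2 in cold-sensitive replicates 1 to 3, an order kept for the genes that follow. The types overlapped, with a log2 fold change of -0.38 and a 95% interval of -1.32 to 0.56. Stx3, a syntaxin of ribbon synapses and of plasma membranes in epithelia, had an interval of -0.24 to 0.85. The others were low and variable: Stx11, a syntaxin known from cytotoxic lymphocytes, had 2.37, 18.1 and 10.6 against 1.72, 10.1 and 2.83 normalized reads (log2 fold change -1.09, interval -2.87 to 0.68), and Stx2, Stx4a and Snap23 had intervals over 2 log2 units wide.

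All 5 VAMP genes had log2 fold changes above 0, from 0.10 to 1.12, with 0 called and 0 at an unadjusted p under 0.05. Vamp2, the synaptobrevin of synaptic vesicles, had 657, 531 and 582 against 825, 629.6 and 603 normalized reads, and its interval was -0.22 to 0.65 on the log2 scale. Vamp1, its paralogue of fast spinal and brainstem synapses, had 6.93, 24.9 and 4.70 against 21.3, 30.4 and 28.0. Its log2 fold change was the highest of the 72 genes, yet cold-insensitive replicate 2 lay among the cold-sensitive pools and the adjusted p was 0.616 (edgeR). Vamp4 and Vamp7, SNAREs of endosomes and lysosomes, had log2 fold changes of 0.18 and 0.28.

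The 10 SNAREs of endosomes, Golgi and endoplasmic reticulum had log2 fold changes of -0.37 (Stx5a) to 0.99 (Stx17), 0 of them at an unadjusted p under 0.05. Stx17, the syntaxin of autophagosomes, had 16.9, 24.7 and 12.3 normalized reads against 9.48, 48.2 and 49.4, with cold-sensitive replicate 1 the lowest of the 6 pools (adjusted p 0.624, edgeR). Snap47, the most abundant of this role per kilobase, had 246, 280.1 and 202 against 225, 205 and 254 and an interval of -0.57 to 0.39. Of its 2651 exon bases, 307 overlap Jmjd4 on the other strand. Stx16, of the trans-Golgi network, was above in all cold-sensitive pools, at 56.3, 49.1 and 57.5 against 68.4, 70.3 and 70.5, although its interval of -0.37 to 1.09 spans 0. The other genes of the role, Stx6, Stx7, Stx8, Stx12, Stx18 and Snap29, had log2 fold changes of -0.30 (Stx7) to 0.68 (Snap29). Snap91 (AP180) is a clathrin adaptor that the name rule takes in. It had 339.8, 162 and 214 against 249, 259 and 216 normalized reads and a log2 fold change of 0.017.

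Among the genes whose products bind syntaxin or take SNARE complexes apart, Stxbp5l and Napb are described above. Stxbp5 (tomosyn-1), the relative of Stxbp5l, had 286, 253 and 303 against 296, 434 and 257 and an interval of -0.25 to 0.70, which overlaps that of Stxbp5l (0.34 to 1.58). Stxbp2 (Munc18-2) was low and variable, at 21.6, 3.92 and 4.70 against 25.9, 2.76 and 8.78. The ATPase Nsf had 443, 434 and 376 against 372, 359.6 and 511 normalized reads and an interval of -0.46 to 0.43. Its attachment proteins Napa and Napg had log2 fold changes of -0.13 and -0.28, opposite in sign to Napb, and for Napg all cold-sensitive pools (117, 97.0 and 91.9) lay below all cold-insensitive ones (119.95, 119 and 133).

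Of the 12 synaptotagmin and Doc2 genes, 8 had log2 fold changes above 0, and at the unadjusted threshold 1 (Syt13) was higher and 1 (Syt10) lower. Syt1, the sensor of synchronous release, had 719, 609 and 762 normalized reads in the cold-insensitive and 710.3, 588 and 1101 in the cold-sensitive replicates. Cold-sensitive replicate 3 was the highest and cold-sensitive replicate 2 the lowest of the 6, and the interval was -0.27 to 0.67 on the log2 scale. Syt4 had 2017, 2645 and 2981 against 2679.9, 2633 and 2929 normalized reads and an interval of -0.32 to 0.53, the lowest pool being cold-insensitive replicate 1. Syt7, a slow sensor with high affinity for calcium, had a log2 fold change of 0.068 (-0.61 to 0.75) and Syt11 one of 0.11 (-0.34 to 0.56). Doc2b, a sensor of spontaneous release, had 22.6, 36.6 and 26.0 against 52.3, 62.0 and 44.5 without overlap of the types, and a log2 fold change of 0.89 ± 0.45 (unadjusted p 0.0588, adjusted p 0.495, edgeR). Syt6, Syt12 and Syt16 had log2 fold changes of -0.73, -0.68 and -0.42 at low levels, with intervals that span 0, as do those of Syt5 (-0.29 to 0.77) and Syt14 (-0.35 to 0.96).

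Both complexins in the table had a log2 fold change of -0.44. Cplx2 had 141, 192 and 174 normalized reads in the cold-insensitive and 168, 84.5 and 122 in the cold-sensitive replicates, and Cplx1 had 45.3, 92.7 and 80.4 against 87.6, 22.1 and 51.3. For each, cold-sensitive replicate 2 was the lowest pool and cold-sensitive replicate 1 lay among the cold-insensitive pools, and the intervals of -1.02 to 0.14 and -1.33 to 0.45 span 0.

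Of the 8 priming and Rab3 genes, 3 are described above. Rab3c, with 559, 409 and 492 against 420.4, 515 and 491 normalized reads, had a log2 fold change of -0.035 and an interval of -0.47 to 0.40. The Munc13 genes Unc13a, Unc13b and Unc13c had log2 fold changes of 0.14, -0.078 and 0.37, and the interval of the most abundant, Unc13a, was -0.37 to 0.66. Unc13a shares 495 exon bases with Colgalt1 on the other strand.

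Among the 8 active zone genes, 5 had log2 fold changes above 0, all of them RIM genes or Piccolo (Pclo). Rims1, a scaffold that tethers calcium channels and Munc13 near docked vesicles, had 103, 96.6 and 125 normalized reads in cold-insensitive and 150.3, 142 and 144 in cold-sensitive replicates, without overlap, and an interval of -0.13 to 0.98 on the log2 scale. Bassoon (Bsn), the most abundant of the role per kilobase, had 449.9, 631 and 728 against 624, 663 and 393, with the lowest value in cold-sensitive replicate 3. Pclo had 572, 493 and 642 against 501, 745 and 898, with the highest value in that same pool, so the large scaffolds Bassoon and Piccolo lay at opposite extremes there. The remaining RIM genes Rims2, Rims3 and Rims4 had log2 fold changes of 0.28, 0.21 and 0.37. Erc2, the brain ELKS, had a log2 fold change of -0.027 and an interval of -0.52 to 0.47, which overlaps that of Erc1 (-1.02 to -0.045).

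Of the 10 proteins of the vesicle membrane and coat, 7 had log2 fold changes below 0. Synaptophysin (Syp), an abundant vesicle protein that binds Vamp2, had 926, 955 and 1109 normalized reads in the cold-insensitive and 760.3, 731 and 893 in the cold-sensitive replicates. The types did not overlap, the log2 fold change was -0.33 ± 0.20 and the adjusted p was 0.624 (edgeR). Synapsin 1 (Syn1), which tethers vesicles in the reserve pool, had 342, 313 and 309 against 306, 322 and 281 and an interval of -0.52 to 0.35. Syn2 and the synaptogyrins Syngr1 and Syngr3 had log2 fold changes of -0.19, 0.27 and -0.22, and the synaptophysin-like Sypl one of -0.24. Syn3, whose exons share 1733 bases with Timp3 on the other strand, and Sv2b were low and scattered, at 18.2, 19.4 and 6.66 against 24.4, 9.21 and 1.79 for Syn3 and 1.69, 26.1 and 10.8 against 2.87, 9.83 and 42.4 for Sv2b.

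**Figure D5:**
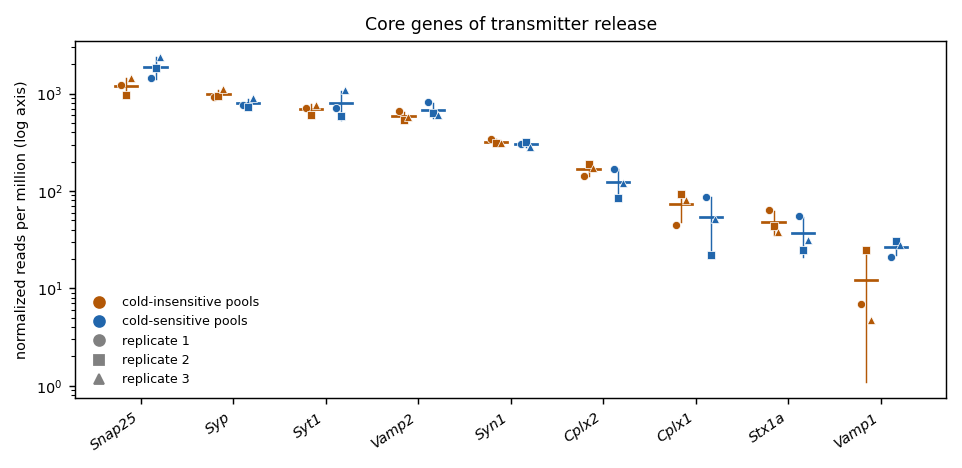
Normalized reads (RPM, log axis) of 9 core release genes by pool, with type means (horizontal lines) and SD (vertical lines, n = 3). The types overlap for 7 of the 9. The exceptions are Snap25, higher in cold-sensitive pools, and Syp, lower.

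The genes were not evenly spread over the pools at their extremes. Cold-sensitive replicate 3, which had the largest total count, held the highest value of the 6 pools for 22 of the 72 genes (30.6%), beside 15.3% of all genes, and the lowest for 7 (9.72%, beside 14.8%). Cold-insensitive replicate 2 and cold-sensitive replicate 2 held the highest value for 5 genes each. Among the 10 genes at an unadjusted p under 0.05, cold-sensitive replicate 3 was the highest pool for Stxbp5l, Snap25 and Syt13 and the lowest for Cadps2.

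Other presynaptic genes, from lists outside the name rule, gave 0 calls in either direction in edgeR. Their counts at an unadjusted p under 0.05 stand beside 5.04% of all genes higher and 5.66% lower. Of the endocytosis and recycling list, 32 of 33 genes were in the table, and 2 were higher at an unadjusted p under 0.05, Sh3gl2 (endophilin A1, log2 fold change 1.05) and Dnajc6 (auxilin, 0.54), and 0 lower. Of the active zone and Rab3 partners, 23 of 25 were in the table, 1 higher and 3 lower at that threshold. Tspoap1 (RIM-BP1), which links RIM to calcium channels, had 218, 234 and 233 normalized reads in cold-insensitive and 159, 99.2 and 68.1 in cold-sensitive replicates, without overlap. Its log2 fold change was -1.07 ± 0.28 (adjusted p 0.0645 in edgeR and 0.0243 with the block). Of the chaperones and small regulators, 15 of 19 were in the table, with 1 higher (Scamp1, 0.64) and 3 lower (among them Sncg at -1.56 and Cspg5 at -0.83) before adjustment. Of the vesicular proton pump list, 16 of 16 genes were in the table, with 1 higher (Atp6v1a, 0.55) and 1 lower (Atp6v1f, -0.90) before adjustment. The median log2 fold changes of the 4 lists were 0.024, 0.11, -0.22 and 0.13, beside 0.11 for the release genes and 0.0013 for all genes.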

How the data were processed

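Types and replicate numbers were taken from the sample titles. The authors used Trimmomatic 0.36 for trimming, STAR 2.5.4b for alignment to GRCm38.p6, and featureCounts (Subread 1.6.2) with its default parameters for counting by gene. The defaults ignore strand, although the library kit kept it. Raw counts were deposited by the authors beside a normalized signal (RPM), in which they divided the counts by the effective library size after TMM scaling. It also holds 5 columns of the authors' means, fold change and p-value, which were not used. The lowest count is 4 and the lowest normalized value 1.01. Depth per library is given with the data. With 3 pools per type the precision is set by the spread between pools.

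The 72 genes, their roles, the other gene lists and the markers were chosen with earlier results of these data known, so no count here is independent support. The raw counts of all 9583 genes were fitted in R 4.3.3 with edgeR 4.0.16 (TMM, glmQLFit in its legacy form, glmQLFTest, type of neuron as the only term, prior count 0.125), and genes were called where the Benjamini-Hochberg adjusted p was at most 0.05. The standard error is the log2 fold change divided by the square root of F. Printed levels are the authors' normalized reads (RPM), and levels between genes were divided by exon length (GENCODE mouse release 21, GRCm38, in which 72 of 72 genes were matched by symbol). The fit was tested on simulated data. Values in every library are given for genes at an unadjusted p under 0.05, the most abundant of each role, the 4 largest log2 fold changes in each direction, and core release genes. Other genes given with library values were chosen after their values were seen. Some genes that enter the counts are not reported singly here.

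The study's methods state that each replicate drew both types from shared coverslips, so the replicate number was taken to pair the libraries and was used as a block in a further fit. Deviations from the type means correlated at 0.0544, 0.0436 and 0.0546 across genes for libraries of the same number. For libraries of different numbers the correlations were -0.0396 to -0.0111. Deviations sum to 0 within a type, so these values are not independent of one another. All were under 0.1, the limit chosen here for showing pairing from the data, so the pairing was taken from the methods. Alternatives were other scalings, at least 20 counts in every library, DESeq2 1.42.0, limma 3.58.1 on log2 values with a pseudocount of 1 or 0.5, robust dispersion, the block and single libraries left out. Leaving out pairs in the blocked fit was added after seeing the data.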

Additional observations from a re-analysis of the deposited data

How the results depend on the processing

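The main counts, 0 of the 72 genes called higher and 0 lower, were compared over 15 alternatives. The count called higher stayed at 0 in all 15, and was 1 (Snap25) in the blocked fit without the pair of replicate 1. The count called lower was 2 with scaling by library size only (Sv2c and Syt10), 2 with at least 20 counts in every library (the same genes, of 65 release genes kept), 4 with DESeq2 (Cadps2, Sv2c, Syt10 and Rab3a), 1 with robust dispersion (Sv2c) and 2 with the replicate block (Sv2c and Syt10). It ranged from 0 to 1 with single libraries left out, and from 0 to 1 in the blocked fit with single pairs left out. It was 0 with the DESeq2 size factors in edgeR, upper quartile scaling and limma. At an unadjusted p under 0.05, the count of 5 higher genes ranged from 3 to 6 with single libraries left out, and that of 5 lower genes from 4 to 6. The median log2 fold change of the 72 genes lay between 0.041 and 0.12 over the 15 alternatives. The block changed no other call among the 72 genes. Among the list and marker genes it added calls for Tspoap1, Nefl and Nefm (lower) and Mbp (higher).

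Of 359 alternative values for the 24 genes named by rule, 10 changed sign, all of genes whose intervals span 0. The log2 fold change of Snap91 was -0.013 with library size only and -0.20 to 0.37 with single libraries left out. With single libraries left out, those of Bsn, Snap47, Syt1 and Syt4 ranged from -0.28 to 0.093, -0.21 to 0.025, -0.10 to 0.38 and -0.033 to 0.24. The causes were not tested. The 10 genes at an unadjusted p under 0.05 kept their sign in all 15. Low genes such as Stx11, Sv2b and Syn3 had intervals over 3 log2 units wide from end to end. Their differences were thus measured with low precision, and a difference in them could have been missed.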
